A study of Mus musculus with 2 samples.

Results

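The BCL2 family decides whether mitochondria release the factors that start apoptosis. Anti-apoptotic members hold the effectors Bax and Bak1 in check, and freed effectors open pores in the outer mitochondrial membrane, while BH3-only members sense stress or lost growth factors and act by binding the members of the other classes. In marrow, Bcl2l1 is known for the survival of late erythroid cells and platelets, Mcl1 for that of stem cells and neutrophils, and Bcl2 for that of lymphocytes. The members described here were taken by gene symbol and are 10 of the 32285 genes counted: the anti-apoptotic Bcl2, Bcl2l1, Mcl1 and Bcl2a1b, the effectors Bax and Bak1, and the BH3-only genes Bcl2l11, Bid, Bad and Bbc3.

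The data are single-cell RNA counts of flushed femoral marrow from 1 control mouse and 1 double-knockout mouse, both 2 months old. The control (WT), a littermate, had normal cGas and no VavCre, and both its Ddx41 alleles were floxed. The double knockout (DKO) carried VavCre with both Ddx41 alleles floxed and lacked cGas (VavCre:Ddx41 fl/fl, cGAS-/-), and VavCre is active in hematopoietic cells. The comparison addresses how marrow cells differ when Ddx41 is deleted in blood cells that also lack cGas. Since the control has cGas, the comparison cannot tell the loss of Ddx41 from that of cGas. It holds 1 library per genotype, so genotype, mouse and library cannot be told apart, no test was possible, and every interval below is a 95% interval for counting error only. WT cells were called here from all barcodes, while the DKO cells were taken as already called. The way of calling cells therefore cannot be told from genotype either.

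The WT library held 18755 cells with 119614367 unique molecular identifiers (UMIs) and a median of 4876 per cell. The DKO library held 13726 cells with 114783609 UMIs and a median of 6903.5 per cell. Hemoglobin transcripts were 28.4% of UMIs in WT and 36.4% in DKO. The libraries shared 81 cell barcodes, 0.421% of the called WT barcodes and 0.573% of the DKO barcodes. Levels are given as counts per 1000000 UMIs (CPM) of the summed cells of a class, with exact Poisson intervals, and ratios as log2 of DKO over WT with 1 count added to each sum. A 3' UMI stands for 1 molecule whatever the length of the transcript, so levels of different genes are compared without scaling by length. Whether reads within introns were counted is not given. If they were, long genes such as Bcl2 (176 kb) could have more UMIs than short ones such as Mcl1 (4.39 kb). Shares and orders between genes carry that limit, which was not tested.

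Cells were grouped into 35 clusters without the members, and the clusters were given 16 non-erythroid class names from marker genes, each of which stands for cells like that type (T-cell-like, neutrophil-like and so on). Erythroid cells, 7608 in WT and 6374 in DKO, were instead divided into 5 ranges of the hemoglobin share of their UMIs. These ranges are not cell types. In WT, 88 erythroid cells lay within 2 points of the 15% limit, 125 of the 40% limit, 246 of the 75% limit and 2109 of the 90% limit. In DKO the numbers were 80, 108, 200 and 1551, so the upper limit runs through a dense part of both libraries.

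The genes targeted by the knockout come first. Ddx41, an RNA helicase gene, had 2421 UMIs in WT and 919 in DKO, or 20.2 and 8.01 CPM, a log2 ratio of -1.34 (-1.45 to -1.23). In stromal-like cells the ratio was -0.23 from 11 and 4 UMIs, too few to tell. Cgas, which codes for a sensor of cytosolic DNA, had 1618 and 833 UMIs, or 13.5 and 7.26 CPM, a log2 ratio of -0.90 (-1.02 to -0.78). This all-cell value mixes classes of different abundance. The Cgas ratio was -0.42 in granulocyte-monocyte-progenitor-like, -0.35 in neutrophil-like and -0.26 in monocyte-like cells, the classes with most of its UMIs. It was -0.78 under 15% hemoglobin and -1.35 in plasmacytoid-dendritic-like cells, the latter from 48 and 8 UMIs. Both all-cell ratios have the direction of the labels, but the sources used here do not say where the deleted parts lie. The 3' tags may fall outside them, so UMIs that remain say nothing about the share of cells with a deletion.

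The anti-apoptotic members had their largest shares in different cells. Bcl2 made up 78.8% of the anti-apoptotic UMIs of WT T-cell-like cells (exact Clopper-Pearson interval 77.3 to 80.2) and 79.9% in DKO. Mcl1 made up 83.4% in WT neutrophil-like cells (82.6 to 84.2) and 87.1% in DKO. Bcl2l1 made up 95.2% in WT cells of 75 to 90% hemoglobin (94.5 to 95.9) and 98.3% in DKO. In each of these 3 groups of cells 1 gene thus gave most of the anti-apoptotic UMIs in both libraries, which did not hold for all classes. Macrophage-like cells had the most even make-up, with 31.8% Bcl2l1, 33.2% Mcl1 and 32.2% Bcl2a1b in WT, and 33.3%, 39.0% and 26.2% in DKO. Hemoglobin, however, was 49.4% of their UMIs in both libraries, and in WT up to 100% of their Bcl2l1 and Mcl1 UMIs could be free RNA, so this make-up is not shown to be that of macrophages. Small pre-B-like and immature B-like cells split between Bcl2l1 and Mcl1, with 47.8% and 49.4% in WT and 47.8% and 48.1% in DKO.

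**Figure D1:**
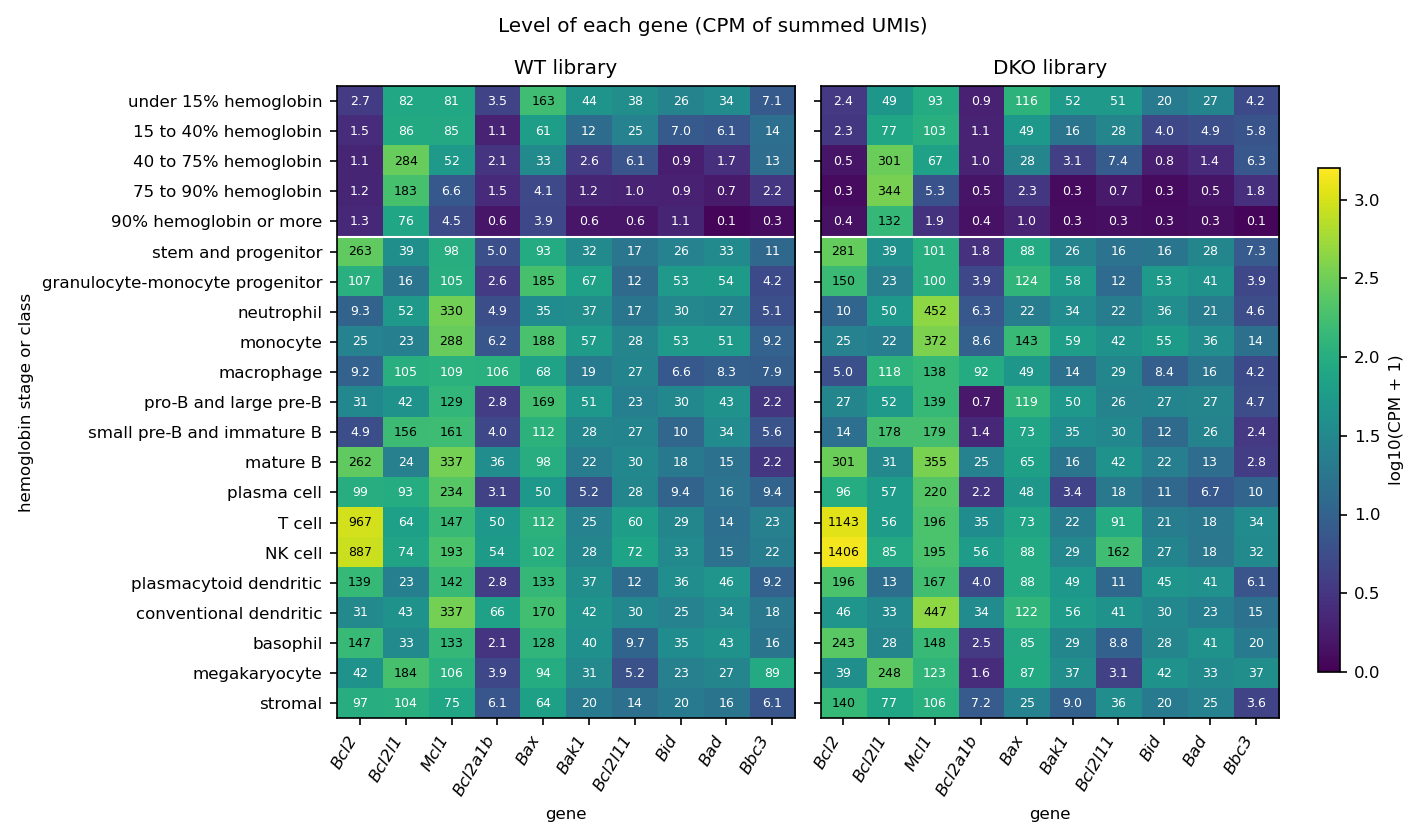
Levels of the 10 members in CPM (color, log scale) in 5 hemoglobin ranges and 16 non-erythroid classes, WT and DKO side by side. Bcl2 peaks in T-cell-like and NK-like cells (967 and 887 CPM in WT), Mcl1 in myeloid and mature B-like classes, and Bcl2l1 in erythroid cells of 40 to 75% hemoglobin (284 CPM in WT).

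Bcl2l1, whose main product BCL-XL blocks the effectors at the mitochondrion, was followed through erythroid cells. In WT it stood at 81.5 CPM in cells under 15% hemoglobin, 85.9 at 15 to 40%, 284 at 40 to 75%, 183 at 75 to 90% and 76.3 at 90% or more. In DKO the levels were 49.0, 76.8, 301, 344 and 132 CPM. The WT peak thus lay at 40 to 75% and the DKO peak at 75 to 90%. Scaled to UMIs outside hemoglobin genes, the WT levels were 85.2, 120, 690, 1302 and 911 CPM and the DKO levels 50.9, 108, 716, 2278 and 1791 CPM. On that scale both libraries peaked at 75 to 90% hemoglobin.

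By hemoglobin range, Bcl2l1 was lower in DKO at the start and higher at the end. The log2 ratio was -0.73 (-0.93 to -0.54) under 15% hemoglobin, from 515 and 361 UMIs. It was -0.16 (-0.36 to 0.04) at 15 to 40% and 0.08 (0.01 to 0.16) at 40 to 75%. It was 0.91 (0.85 to 0.98) at 75 to 90% and 0.79 (0.66 to 0.93) at 90% or more. The median ratio of all genes in those last ranges was -0.09 and -0.57. Scaling to UMIs outside hemoglobin moved these medians by -0.10 and 0.18, and relative to the median of all genes Bcl2l1 stood at 1.005 and 1.360 on either scale.

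The early difference rested largely on 1 cluster. A cluster led by Xpo7, a late erythroid gene, and March3 held 148 of the 1005 WT cells under 15% hemoglobin (14.7%) and 55 of the 710 DKO cells (7.75%). It carried 349 and 173 of the Bcl2l1 UMIs of that range, 67.8% in WT and 47.9% in DKO. The same cluster held 37.0% and 23.9% of the Bcl2l1 UMIs at 15 to 40% hemoglobin. By its markers the cluster was late-erythroid-like, with 16 of 16 late erythroid markers raised, although the hemoglobin share of some of its cells is that of early ones.

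Over all hemoglobin shares that cluster had 280 WT and 199 DKO cells with the highest Bcl2l1 levels of the 9 erythroid clusters, 1150 and 1006 CPM, a log2 ratio of -0.19. Its median depth was 1453 UMIs in WT and 5102 in DKO, its median hemoglobin share 12.95% and 53.2%. Malat1, a nuclear RNA, stood at 15094 and 9901 CPM there, and the neutrophil transcript S100a8 at 2585 and 787 CPM. The part of depth, nuclear RNA and RNA from other cells in these levels was not tested. Without this cluster, an alternative chosen after seeing the data, the ratio under 15% hemoglobin was -0.07 (-0.37 to 0.24), so the lower level in DKO was no longer detectable.

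The level also varied with depth. Among cells under 15% hemoglobin, those below 1000 UMIs had 624 CPM of Bcl2l1 in WT and 341 in DKO, and those of 1000 to 2000 had 644 and 506. Those of 2000 to 5000 went the other way, with 97.5 CPM (70.9 to 131) and 176 CPM (136 to 225). Those of 5000 UMIs or more had 19.7 and 17.9 CPM, and their intervals, 16.1 to 23.8 and 14.8 to 21.4, overlapped. This split, too, was chosen after values were seen. With cells called by the order-of-magnitude UMI threshold the ratio was -0.23, with cells of at least 1000 UMIs -0.43, and with each cell weighing the same -0.57, and none of these reached 1.5-fold.

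The rise of Bcl2l1 from under 15% to 40 to 75% hemoglobin had a size that depended on the same cells. It was 3.48-fold in WT and 6.14-fold in DKO as summed. It was 9.38-fold and 9.67-fold without the Xpo7 and March3 cluster, 12.7-fold and 16.9-fold with the order-of-magnitude threshold, and 8.10-fold and 14.1-fold scaled to UMIs outside hemoglobin. With each cell weighing the same it turned around in WT, to 0.884-fold, and was 1.36-fold in DKO. The direction of the rise in WT therefore holds for summed UMIs and not for the mean over cells, in which shallow cells weigh more.

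Over all UMIs, the late difference in Bcl2l1 was smaller within clusters than in the last 2 hemoglobin ranges. In the cluster led by Tmcc2 and Xpo7 the levels were 466 and 601 CPM, a log2 ratio of 0.37. In the cluster led by Tmcc2 and 5830448L01Rik they were 244 and 345 CPM (0.50), in the one led by Prxl2a and Bpgm 178 and 241 CPM (0.44), and in the one led by Bpgm and Hba-a2 106 and 122 CPM (0.21). All 4 ratios were above 0 beyond counting error and below 1.5-fold, against 0.91 and 0.79 for the last 2 ranges. Of the Tmcc2 and Xpo7 cluster, however, 384 of 676 WT cells and 189 of 512 DKO cells lay at 40 to 75% hemoglobin, where the ratio was 0.08. DKO cells of each of these clusters held more hemoglobin, such as 89.7% against 86.9% of UMIs in the Prxl2a and Bpgm cluster. Scaled to UMIs outside hemoglobin the differences were wider, with 1802 and 2595, 1487 and 2553, 1353 and 2336, and 991 and 1600 CPM in the order above. On that scale all but the first passed 1.5-fold.

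The make-up of the ranges differed between the libraries. Of the cells at 75 to 90% hemoglobin, the Bpgm and Hba-a2 cluster, where Bcl2l1 was low, held 55.6% in WT and 24.9% in DKO. The Tmcc2 and Xpo7 cluster, where it was high, held 8.16% and 23.4%. Giving both libraries the same hemoglobin shares cell by cell, an alternative chosen after seeing the data, gave ratios of 0.75 at 75 to 90% and 1.09 at 90% or more. How much of the late difference lies in hemoglobin share or in the mix of clusters was not tested.

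In earlier erythroid clusters the ratios were mixed. They were -0.72 (-1.32 to -0.18) in the shallow cluster led by Mt2 and Car1, 0.06 in that led by C1qtnf12 and Car1, 0.34 in that led by Hist1h3c and Hemgn, and 0.38 in that led by Gm31452 and Gm10603. The Mt2 and Car1 ratio comes from 78 and 42 UMIs. Of these, 40 and 20 came from 52 WT and 12 DKO cells at 75 to 90% hemoglobin. Only 22 and 14 came from 384 and 281 cells under 15%. These clusters had levels between 23.4 and 326 CPM.

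**Figure D2:**
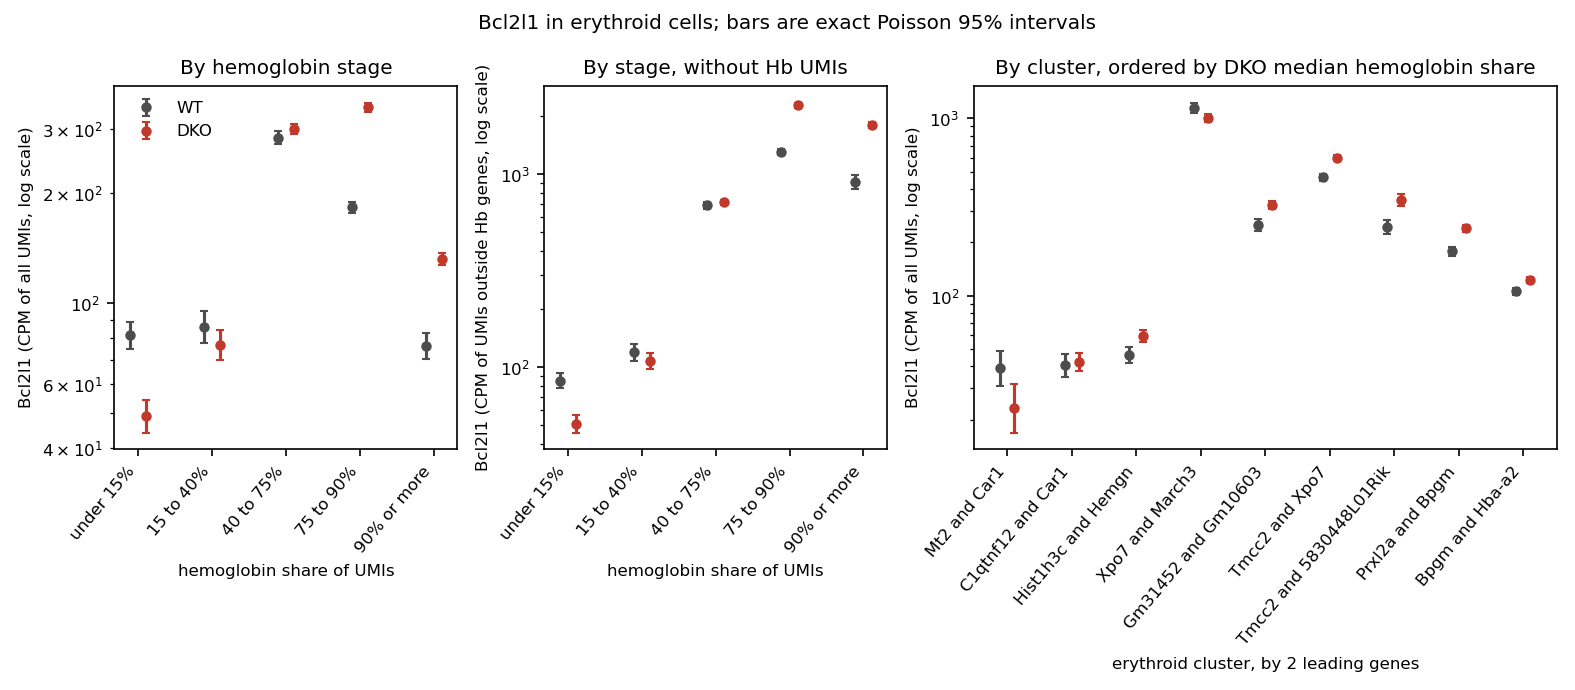
Bcl2l1 in CPM (log axis) in WT and DKO by hemoglobin range over all UMIs, by range over UMIs outside hemoglobin, and by the 9 erythroid clusters, with 95% Poisson bars. The gap at 75 to 90% hemoglobin (183 against 344 CPM) is wider, over all UMIs, than the gap within any late cluster, such as 466 against 601 CPM in the Tmcc2 and Xpo7 cluster.

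Outside the erythroid cells, megakaryocyte-like cells followed with 184 CPM of Bcl2l1 in WT and 248 in DKO, then small pre-B-like and immature B-like cells with 156 and 178 CPM. Free RNA could be up to 68.9% and 42.0% of the WT UMIs there. The order of megakaryocyte-like cells and of the 75 to 90% range was within counting error in WT. Macrophage-like and stromal-like cells, next in WT with 105 and 104 CPM, did not differ from each other there, but their hemoglobin shares were 49.4% and 33.7% and up to 100% of these UMIs could be free RNA. The lowest levels were in granulocyte-monocyte-progenitor-like cells, with 16.1 CPM in WT and 23.4 in DKO, and in plasmacytoid-dendritic-like cells with 22.8 and 13.5 CPM, where free RNA could be up to 76.2% and 100% of the WT UMIs.

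Shares of cells with a UMI gave the same picture at equal depth. With each cell thinned to 1000 UMIs, 26.7% of WT cells of 40 to 75% hemoglobin had a Bcl2l1 UMI (24.2 to 29.3) and 27.4% of DKO cells (24.85 to 30.04), with 3 and 33 cells under 1000 UMIs left out. Unthinned, the shares were 68.0% and 73.5%. Mature B-like cells, where the gene is low, had 1.36% and 1.72% thinned and 5.09% and 6.89% unthinned. Median depths were 6403.5 and 10641 UMIs in the erythroid range and 2561 and 3633.5 in the B-like class, so the erythroid share stands far above that background after thinning.

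Mcl1, a short-lived anti-apoptotic protein's gene, rose along the neutrophil clusters. From the cluster led by Fcnb and Chil3, early granule genes, to that led by Il1b and Pla2g7, the WT levels were 97.8, 154, 353, 720 and 1056 CPM. The DKO levels were 92.0, 163, 413, 884 and 1345 CPM. Each step up was larger than counting error in both libraries. The last cluster was 10.8-fold above the first in WT and 14.6-fold in DKO, or 7.71-fold and 11.2-fold with the order-of-magnitude threshold for cells.

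DKO over WT, Mcl1 had a log2 ratio of 0.46 (0.41 to 0.50) in neutrophil-like cells, from 330 and 452 CPM, and 0.37 (0.29 to 0.45) in monocyte-like cells, from 288 and 372 CPM. Neither reached 1.5-fold. Within neutrophil clusters the ratios ran from -0.09 in the earliest to 0.35 in the latest, all below that of the class. The mix of clusters differed, with 832 of 3534 WT and 557 of 3407 DKO neutrophil-like cells in the second, led by Ltf and Orm1, and 765 and 931 in the fourth, led by Retnlg and Cstdc4. What part of the class ratio lies in that mix was not tested. In the small monocyte cluster led by Adgre4 and Ace, genes of patrolling monocytes, the levels were 408 and 677 CPM, a ratio of 0.72 from 104 and 156 UMIs. Mcl1 was above 0 in 9 of the 10 non-erythroid classes with at least 1000000 UMIs per library, granulocyte-monocyte-progenitor-like cells being the exception. Its median ratio over these classes, 0.19, was at the 61.1th percentile of the genes with at least 50 UMIs in each of them. That median was thus ordinary. Of those genes 17.8% were above 0 in every class, and the share with the tally of Mcl1 was not counted.

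Conventional-dendritic-like, mature B-like and neutrophil-like cells led the order of Mcl1 levels in WT with 337, 337 and 330 CPM, which did not differ beyond counting error. In DKO, neutrophil-like and conventional-dendritic-like cells led with 452 and 447 CPM, and mature B-like cells had 355. Thinned to 1000 UMIs, 36.3% of WT and 45.2% of DKO neutrophil-like cells had an Mcl1 UMI (105 and 69 cells left out). Unthinned, these were 78.0% and 86.9%, at median depths of 4219.5 and 4440 UMIs. In cells of 90% hemoglobin or more, with median depths of 5139 and 7920, the thinned shares were 0.511% and 0.156% and the unthinned 2.26% and 1.55%. Hemoglobin was 91.6% and 92.6% of UMIs in that range. Few of the 1000 UMIs were thus left for other genes, and these shares carry that limit.

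In erythroid cells Mcl1 gave way to Bcl2l1 as a share of anti-apoptotic UMIs. Its WT levels over the hemoglobin ranges were 81.2, 85.5, 52.0, 6.61 and 4.46 CPM, and its DKO levels 93.1, 103, 66.5, 5.32 and 1.91 CPM. The Mcl1 and Bcl2l1 shares of anti-apoptotic UMIs were alike under 15% hemoglobin in WT, 48.1% and 48.3%. By 90% or more they were 5.41% and 92.4%. In DKO the start was 64.0% and 33.7%, in the range where the Xpo7 and March3 cluster weighs on Bcl2l1. At 90% or more the ratio of Mcl1 was -1.23 from 32 and 40 UMIs, and up to 90.2% of the WT UMIs there could be free RNA by the level of neutrophil transcripts in those cells. S100a8, 1 of these transcripts, stood at 227 CPM there in WT and 93.6 in DKO, and its bearing on the ratio was not tested.

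**Figure D3:**
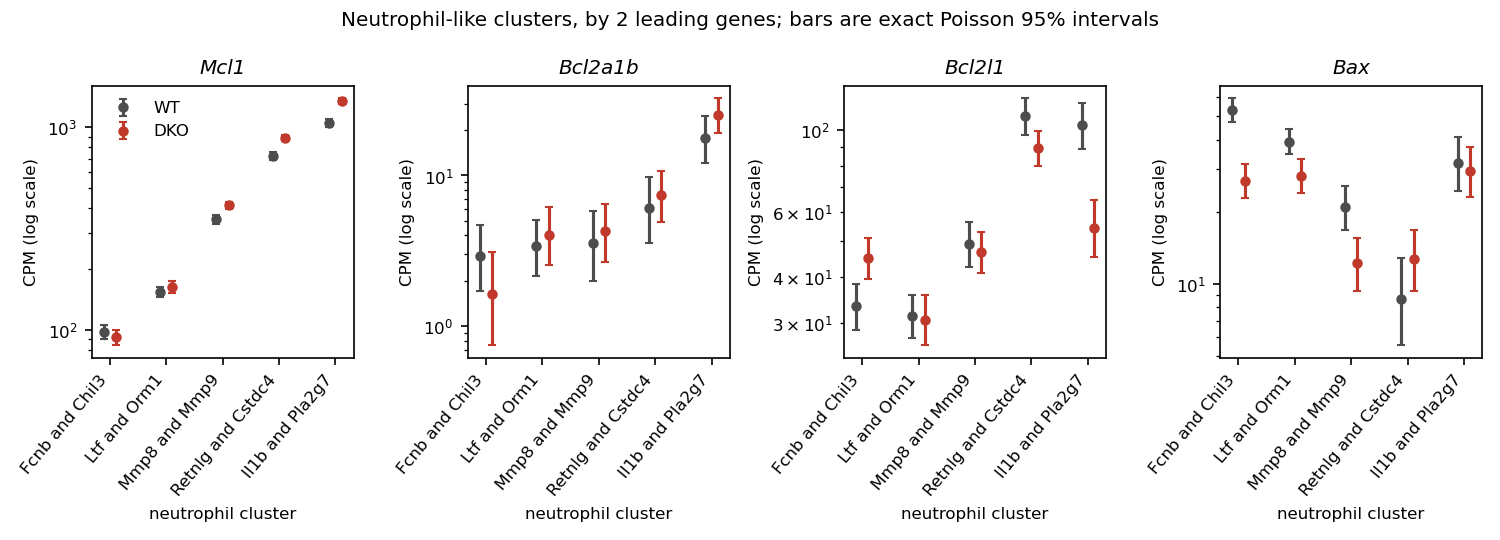
Mcl1, Bcl2l1, Bcl2a1b and Bax in CPM (log axis) over the 5 neutrophil clusters from the earliest (Fcnb and Chil3) to the latest (Il1b and Pla2g7), WT and DKO, with 95% Poisson bars. Mcl1 goes from 97.8 to 1056 CPM in WT and from 92.0 to 1345 CPM in DKO.

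Bcl2l1 had ratios of either sign along the same neutrophil path. It had a log2 ratio of 0.43 in the earliest cluster, from 194 and 247 UMIs, and of -0.92 (-1.26 to -0.59) in the latest, from 193 and 129 UMIs. The 3 clusters between had -0.03, -0.07 and -0.29. Up to 74.7% of the WT Bcl2l1 UMIs of neutrophil-like cells could be free RNA. Over all neutrophil-like cells these gave -0.03. The pair was named after its values were seen, and the difference between the clusters was not tested.

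Bcl2, the family's founding survival gene, had its highest levels among the classes in T-cell-like and NK-like cells. T-cell-like cells had 967 CPM in WT and 1143 in DKO, and NK-like cells 887 and 1406. Stem-like and progenitor-like cells had 263 and 281 CPM and mature B-like cells 262 and 301. The order within each of these pairs differed between the libraries or lay within counting error, while the gap between the pairs did not close in either. Basophil-like cells had 147 and 243 CPM, plasmacytoid-dendritic-like cells 139 and 196, and granulocyte-monocyte-progenitor-like cells 107 and 150.

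Erythroid cells had almost no Bcl2, at most 2.69 CPM in any range and library. In thinned cells, 49.9% of WT and 51.6% of DKO T-cell-like cells had a Bcl2 UMI, with 14 and 3 cells left out. In cells of 90% hemoglobin or more it was 0.146% in WT and 0 of 2564 cells in DKO. Hemoglobin was 91.6% and 92.6% of UMIs there, so thinning left few UMIs of other genes. Unthinned, the T-cell-like shares were 73.1% and 76.2%, against 0.657% and 0.310% in the hemoglobin range, at T-cell-like median depths of 4148 and 5065. Monocyte-like cells as a whole had 25.5 and 25.0 CPM, but their Adgre4 and Ace cluster had 279 and 373.

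Along the B-like stages Bcl2 was lowest in small pre-B-like and immature B-like cells and highest in mature B-like cells. It went from 30.6 CPM in WT pro-B-like and large pre-B-like cells to 4.95 in small pre-B-like and immature B-like cells and 262 in mature B-like cells, and in DKO from 27.4 to 13.8 and 301. Bcl2l1 did the reverse, with 41.7, 156 and 23.5 CPM in WT and 52.0, 178 and 30.9 in DKO. In both libraries the small pre-B-like stage thus had the highest Bcl2l1 and the lowest Bcl2 of the B lineage.

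The DKO level of Bcl2 in that stage rested on very few cells. Its 51 UMIs came from 11 cells, and 28 of them from 1 cell, while the 15 WT UMIs also came from 11 cells. The ratio of 1.41 (0.63 to 2.42) turned to -0.31 without doublet removal and to -0.22 with each cell weighing the same. The first alternative also changed the class. A cluster led by Ms4a1 and Agbl1 (285 WT and 177 DKO cells) then took its name, while the main clustering named such a cluster mature B-like. Which of these changes moved the ratio was not tested. A difference of the whole class is not shown.

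NK-like cells had a Bcl2 ratio of 0.66 (0.47 to 0.86), from 409 UMIs in 81 of 99 WT cells and 477 in 49 of 52 DKO cells. Of the DKO UMIs, 154 came from the 5 highest cells. Basophil-like cells had a ratio of 0.72 (0.40 to 1.05) from 137 and 194 UMIs, of which 54 and 82 came from the 5 highest cells. Both classes are small, and counting error does not cover differences among such cells.

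Bcl2a1b, a copy of the NF-kB-induced survival gene A1, was highest in macrophage-like cells, with 106 CPM in WT and 92.5 in DKO. These levels moved with the choice of cells, to 74.98 and 32.7 CPM with the order-of-magnitude threshold, and to 181 and 228 with each cell weighing the same. Conventional-dendritic-like cells had 65.9 and 33.6 CPM, a ratio of -0.94 from 92 and 31 UMIs, of which the 5 highest cells gave 49 and 21. NK-like cells had 54.2 and 56.0 CPM and T-cell-like cells 49.6 and 34.6.

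Reads of Bcl2a1b are hard to tell from those of its copies. Of the 31-base words in the last 400 bases of its transcripts, 91.6% also occur in Bcl2a1a, Bcl2a1c, Bcl2a1d or 1 further annotated gene. With Bcl2a1a, Bcl2a1b and Bcl2a1d summed, the macrophage-like share of anti-apoptotic UMIs was 37.8% in WT in place of 32.2%. The Adgre4 and Ace monocyte cluster had 137 and 191 CPM of Bcl2a1b, the highest of any cluster named here, from 35 and 44 UMIs. Thinned, 10.4% and 9.33% of macrophage-like cells had a UMI (351 and 233 cells left out), against 0.758% and 0.839% of neutrophil-like cells. Unthinned, these were 18.8% and 19.7% against 2.63% and 3.58%, at macrophage-like median depths of 1170 and 907.5 UMIs.

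Bax, an effector that forms the mitochondrial pore, had a ratio below 0 in every range and class. Free RNA could be up to 48.3% of its WT UMIs at 75 to 90% hemoglobin, 56.3% in neutrophil-like, 94.7% in macrophage-like and 100% in stromal-like cells, and its part in the ratios was not tested. The neutrophil transcript S100a8 was higher in WT in each hemoglobin range, such as 271 against 127 CPM at 75 to 90%. Mature B-like cells went the other way, with 415 and 498 CPM. Over all cells Bax had 10096 UMIs in WT and 5448 in DKO, 84.4 and 47.5 CPM, a log2 ratio of -0.83 (-0.88 to -0.78). The all-cell value mixes classes of different abundance. Of the 21 ratios by range and class, 16 had an interval below 0. In the 10 large non-erythroid classes it ran from -0.68 in neutrophil-like cells to -0.07 in stem-like and progenitor-like cells, with a median of -0.58.

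That median was at the 1.11th percentile of the 4409 genes with at least 50 UMIs in each of the 10 classes. A ratio below 0 in every such class was not rare: 12.2% of those genes had it, and 17.8% were above 0 in every class. Relative to the median of all genes in the class, Bax stood at -0.77 in neutrophil-like and -0.13 in stem-like and progenitor-like cells. With each cell weighing the same these were -0.41 and -0.50. With the order-of-magnitude threshold the macrophage-like ratio went from -0.47 to -1.46.

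Bax was highest in monocyte-like cells, with 188 CPM in WT and 143 in DKO, and in granulocyte-monocyte-progenitor-like cells, with 185 and 124. The WT levels of this pair did not differ beyond counting error. Conventional-dendritic-like cells had 170 and 122 CPM, pro-B-like and large pre-B-like cells 169 and 119, and cells under 15% hemoglobin 163 and 116. Over all UMIs, Bax fell along the erythroid ranges to 60.9, 33.2, 4.14 and 3.91 CPM in WT and to 49.4, 27.6, 2.32 and 1.004 CPM in DKO. Hemoglobin rose from 4.29% to 91.6% of UMIs in WT and from 3.77% to 92.6% in DKO. The fall is therefore smaller over UMIs outside hemoglobin and need not hold at each step.

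Along the neutrophil clusters the difference in Bax ran from -0.98 (-1.28 to -0.70) in the Fcnb and Chil3 cluster to -0.12 in the Il1b and Pla2g7 cluster. In the Retnlg and Cstdc4 cluster it was above 0, at 0.53 (-0.18 to 1.33), from 24 and 48 UMIs. Of the 31-base words at the ends of Bax transcripts, 19.6% also occur in 1 other annotated gene.

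Bak1, the second effector, showed no difference of 1.5-fold in any class or range with at least 50 UMIs, where its ratios lay between -0.45 and 0.42. It was highest in granulocyte-monocyte-progenitor-like cells, with 66.9 CPM in WT and 57.8 in DKO, and in monocyte-like cells, with 57.3 and 59.5. The order of these classes differed between the libraries. Over all UMIs, the level of Bak1 along the erythroid ranges fell from 43.9 to 0.558 CPM in WT and from 52.2 to 0.287 CPM in DKO. The fall is smaller over UMIs outside hemoglobin. At 90% hemoglobin or more, where Bcl2l1 made up nearly all anti-apoptotic UMIs, Bax had 28 UMIs in WT and 21 in DKO, and Bak1 4 and 6. Hemoglobin was 91.6% and 92.6% of UMIs there, so the low CPM does not show a low level among other transcripts.

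Of the BH3-only members, Bcl2l11, which codes for BIM, was highest in NK-like and T-cell-like cells. NK-like cells had 71.6 CPM in WT and 162 in DKO, a ratio of 1.16 (0.53 to 1.85) from 33 and 55 UMIs. T-cell-like cells had 59.6 and 90.9 CPM (0.61, interval 0.27 to 0.95), and monocyte-like cells 27.8 and 41.9 CPM (0.59, interval 0.35 to 0.83). Of the 55 UMIs in DKO NK-like cells, 23 came from the 5 highest cells. The monocyte-like ratio fell just under 1.5-fold, to 0.57, when scaled to UMIs outside hemoglobin, and to 0.58 at a finer clustering.

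Bcl2l11 was above 0 in 8 of the 10 large non-erythroid classes, a tally not counted for other genes. Its median ratio was at the 57.3th percentile of the genes that passed in all of them, so that median was ordinary too. In erythroid cells it had 37.7 CPM in WT and 51.0 in DKO under 15% hemoglobin and fell, over all UMIs, to 0.558 and 0.335 CPM at 90% or more. The first of these ratios was 0.43 (0.20 to 0.68). In the cluster led by C1qtnf12 and Car1 it was 0.37 (0.12 to 0.62), from 184 and 376 UMIs.

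Bbc3, which codes for PUMA, a target of p53, was highest in megakaryocyte-like cells, with 88.6 CPM in WT and 37.3 in DKO. Of the 136 WT UMIs there, 112 came from 5 cells and 34 from 1 cell, so the ratio of -1.20 rests on a few cells. With each cell weighing the same the WT level was 49.4 CPM. Over the first 3 erythroid ranges its levels were 7.12, 13.7 and 13.01 CPM in WT and 4.21, 5.77 and 6.29 CPM in DKO.

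The Bbc3 ratios in those ranges were -0.75 (-1.47 to -0.07), -1.23 (-1.91 to -0.61) and -1.04 (-1.48 to -0.62). The UMIs behind them, 45 and 31, 63 and 32, and 105 and 82, were spread over nearly as many cells, with at most 4 in a cell. Without the Xpo7 and March3 cluster the first ratio was -0.57, under 1.5-fold. In monocyte-like cells Bbc3 went the other way, with 9.17 and 14.2 CPM and a ratio of 0.63 (0.21 to 1.05) that fell to 0.45 without doublet removal and 0.55 with the order-of-magnitude threshold.

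Bid, which caspase-8 cleaves into its active form, was highest in granulocyte-monocyte-progenitor-like cells (53.0 and 52.5 CPM) and monocyte-like cells (53.0 and 54.6 CPM), which did not differ. Its ratio was -0.61 (-1.22 to -0.08) in stem-like and progenitor-like cells, from 107 and 36 UMIs. At 15 to 40% hemoglobin it was -0.79 (-1.66 to 0.02), from 32 and 22 UMIs, and -0.04 with each cell weighing the same. In megakaryocyte-like cells the ratio was 0.85 from 36 and 27 UMIs, with 23 of the DKO UMIs in 5 cells.

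Bad, which growth factor signals hold inactive by phosphorylation, was below 0 in 8 of the 10 large non-erythroid classes, with a median ratio at the 13.2th percentile of the genes that passed in all of them. Over all cells it had 24.3 CPM in WT and 15.1 in DKO, a ratio of -0.68. The all-cell value mixes classes of different abundance, and the median ratio over the 10 large classes was -0.27. In pro-B-like and large pre-B-like cells it had 42.8 and 27.4 CPM, a ratio of -0.63 (-1.23 to -0.08) from 77 and 41 UMIs. That ratio was -0.58, just under 1.5-fold, without doublet removal and at a finer clustering. Granulocyte-monocyte-progenitor-like cells had 53.7 and 41.3 CPM, the highest level in WT but not in DKO, where they did not differ from basophil-like cells beyond counting error.

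Members were counted as called where they had at least 50 UMIs over both libraries and differed by 1.5-fold or more. Over all cells 3 of 10 members were called, Bcl2a1b, Bax and Bad, all lower in DKO, where 18.4% of all genes were called either way. The all-cell values mix classes of different abundance. Under 15% hemoglobin it was 2 of the 8 members that passed the filter (Bcl2l1 and Bbc3 lower), against 12% of genes. At 15 to 40% it was 2 of 8 (Bid and Bbc3 lower), against 12.3%. With so few members none of these shares stands apart from that of all genes, and the settings above end several calls.

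In later erythroid cells a call was common for any gene. At 40 to 75% hemoglobin 1 of 6 members was called (Bbc3 lower), against 26.4% of genes. At 75 to 90% it was 2 of 4 (Bcl2l1 higher, Bax lower), against 52.5%. At 90% or more it was 2 of 2 (Bcl2l1 higher, Mcl1 lower), against 57.1%, of which most genes were lower. With 2 to 6 members per range these counts are too small to set against those of all genes. At 90% or more 7.96% of genes were higher, and Bcl2l1 was 1 of them.

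In myeloid and progenitor classes the counts were 0 to 2. Stem-like and progenitor-like cells had 1 of 9 (Bid lower), against 9.38% of genes. Granulocyte-monocyte-progenitor-like cells had 1 of 10, Bcl2a1b higher from 38 and 29 UMIs with an interval of -0.16 to 1.33 and up to 99.6% free RNA in WT, against 12.4%. Neutrophil-like cells had 1 of 10 (Bax lower), against 13.3%. Monocyte-like cells had 2 of 10 (Bcl2l11 and Bbc3 higher), against 10.4%, macrophage-like cells 0 of 6 against 18.3%, and plasmacytoid-dendritic-like cells 1 of 8 (Bcl2l1 lower, ratio -0.71 from 72 and 20 UMIs) against 15.7%.

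In lymphoid classes Bax recurred. Pro-B-like and large pre-B-like cells had 1 of 8 (Bad lower), against 11.8% of genes. Small pre-B-like and immature B-like cells had 2 of 8 (Bcl2 higher, from the few cells above, and Bax lower), against 9.91%. Mature B-like cells had 1 of 9 (Bax lower), against 12%, and T-cell-like cells 2 of 10 (Bcl2l11 higher, Bax lower), against 18.6%. The Bax ratios behind these calls, -0.62, -0.59 and -0.62, lay close to the limit of 0.58, and with each cell weighing the same those of mature B-like, T-cell-like and neutrophil-like cells were -0.52, -0.52 and -0.43.

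**Figure D4:**
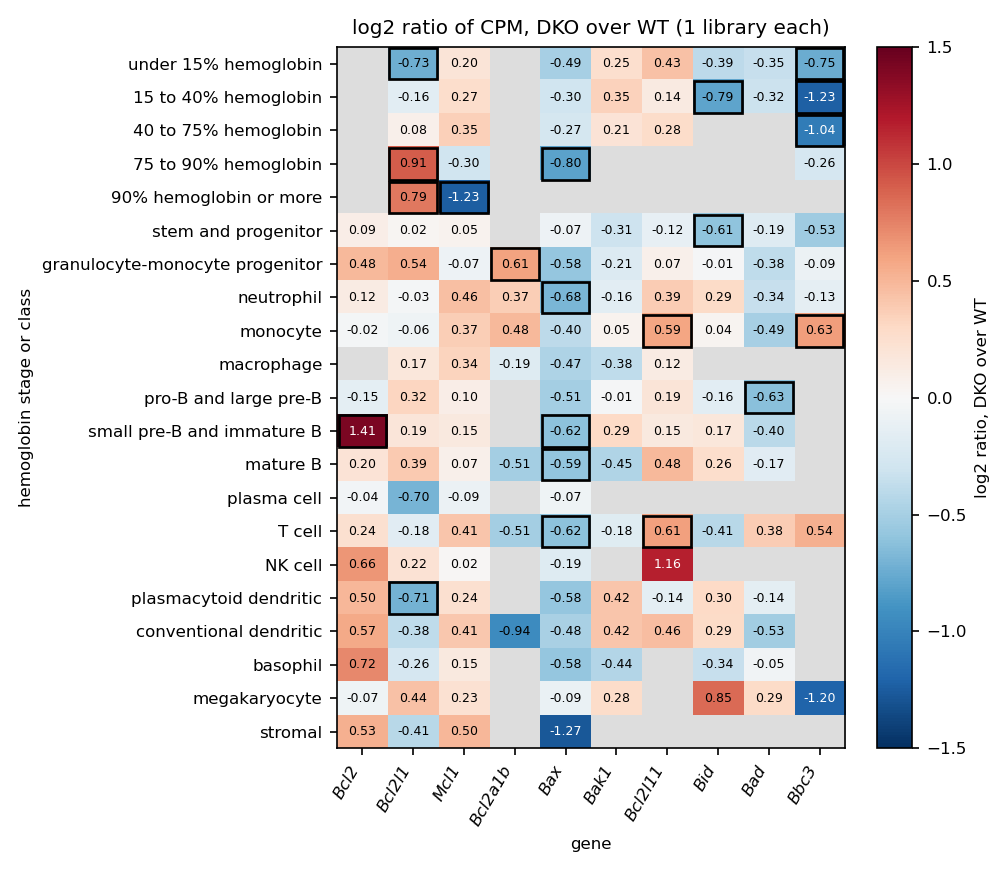
Log2 ratios of DKO over WT for the 10 members by range and class; grey marks sums under 50 UMIs and a black outline marks a called member in the ranges and the 10 large classes. Bax is below 0 wherever a value is shown, and Bcl2l1 goes from -0.73 under 15% hemoglobin to 0.91 at 75 to 90%.

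Other genes of the pathway were counted in the same way. Of all genes 14.6% were lower and 3.73% higher over all cells. Of 15 further BCL2 family genes, 13 passed the filter over all cells and 5 were lower, among them Bcl2l12, Bcl2a1a and Bcl2a1d, with a median ratio of -0.49 against -0.15 for all genes. Of 23 genes of the caspase machinery, all passed and 3 were lower (Endog, Fadd and Vdac2), with a median of -0.24. Of 21 genes for upstream inputs such as cytokine receptors and kinases, 1 was higher (Foxo3) and 1 lower (Il3ra), with a median of 0.08.

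At 75 to 90% hemoglobin, 4 of the 13 genes of the input list that passed were higher, against 23.4% of all genes, among them the survival kinase gene Pim1 and the transcription factor genes Foxo3 and Klf1, and 1 was lower, Ywhaz, whose product binds phosphorylated Bad. Foxo3 went from 52.0 to 149 CPM (1.52) and Pim1 from 64.3 to 148 CPM (1.20). The median of the list was 0.33, against -0.09 for all genes. The caspase list had 1 higher and 5 lower of 11 in the same range, with a median of -0.44, where 29.1% of all genes were lower. At 40 to 75% the median of the caspase list went the other way, at 0.22 against 0.09 for all genes. There 4 of 17 were higher and 2 lower, where 15.4% and 10.98% of all genes were. With so few genes these counts do not show a change of direction. At 90% or more, where Bcl2l1 was also higher, 0 of 7 input genes were higher and 5 were lower, with a median of -1.12, against 7.96% and 49.1% of all genes and a median of -0.57.

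The 5 listed genes with the most erythroid UMIs were Bnip3l, Birc5, Foxo3, Klf1 and Pim1. Bnip3l, a mitophagy gene of the wider family, rose from 203 CPM under 15% hemoglobin to 951 at 75 to 90% in WT and from 186 to 931 in DKO. Peaks are given over all UMIs. Pim1 peaked at 40 to 75%, with 266 and 203 CPM, and Foxo3 there with 366 and 497. Hemoglobin was 58.0% of DKO UMIs at 40 to 75% and 84.9% at 75 to 90%. Over UMIs outside hemoglobin the DKO peak of Pim1 therefore lies later. Klf1, an erythroid transcription factor gene, peaked at 15 to 40%, with 362 and 387 CPM, and Birc5, a gene of dividing cells that is named among inhibitors of apoptosis, there with 1165 and 882.

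The genes with the most similar pattern were sought among 10567 genes over the 21 ranges and classes of the WT library, which share their depth and library. For Bcl2l1 they were Ube2o, Gadd45a and Asb1, with Pearson r of 0.84, 0.82 and 0.81 in WT and 0.84, 0.79 and 0.71 in DKO. For Mcl1, Irf2 and Tank were among them (0.93 and 0.91 in WT, and 0.93 and 0.85 in DKO). For Bcl2 they were Runx3, Klhdc1 and Mypopos (0.91, 0.91 and 0.90, and 0.91, 0.85 and 0.75), and for Bcl2a1b Abcg3, its copy Bcl2a1d and Calhm6 (0.92, 0.91 and 0.87, and 0.83, 0.80 and 0.87). These values describe patterns and carry no test.

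The members' own patterns repeated between the libraries. Over the 21 ranges and classes, the log2 levels of WT and DKO had Pearson r of 0.99 for Bcl2 and Mcl1, 0.98 for Bcl2a1b and Bax, 0.94 for Bcl2l1 and Bad, and 0.87 for Bbc3. Bcl2a1b, Bax, Bcl2l11 and Bbc3 had the same highest class in both. Such values do not see a shift common to all of them, as that of Bax.

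The members lie on 8 chromosomes of GRCm38, the build that pairs with the files' gene IDs. Bcl2l1 spans chr2:152780668-152831728 on the minus strand and Bcl2l11 lies on the same chromosome at 128126038 to 128162547. Bax and Bbc3 are both on chromosome 7, at 45461697 to 45466898 and at 16308393 to 16318205. Mcl1 is at chr3:95658788-95663176 and Bcl2, the longest, at chr1:106538178-106714274. The copies Bcl2a1a, Bcl2a1b and Bcl2a1d lie together on chromosome 9.

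RefSeq promoter windows of GRCm38.p6, from 250 bases before to 50 after a start, were found for 10 of 10 members, 16 windows in all. The GATA motif AGATAA, sought on both strands, was in 1 of the 16, and 11.2% of 32851 mouse windows hold it. The STAT motif TTCNNNGAA was in 0 of 16, against 8.30%. The single match is in a window of Bcl2l1, the member with the erythroid pattern, at chr2:152828440-152828739 on the minus strand. It is printed below 5′ to 3′ with the motif in capitals, as a description of the window and not as a binding site.

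Bcl2l1 window 1: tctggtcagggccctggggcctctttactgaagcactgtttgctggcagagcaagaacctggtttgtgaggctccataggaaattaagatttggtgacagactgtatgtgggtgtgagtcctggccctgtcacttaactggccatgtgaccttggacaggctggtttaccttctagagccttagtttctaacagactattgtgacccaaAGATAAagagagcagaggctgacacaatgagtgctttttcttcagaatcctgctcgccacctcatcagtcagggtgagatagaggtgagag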

How the data were processed

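The deposited files hold raw UMI counts per gene and barcode, made by the authors with Cell Ranger 7.1.0 on mm10, per the file headers and labels. Whether intronic reads were counted is not given in the sources used here. The WT file listed 1518290 barcodes, of which 19249 were called as cells here (9663 above a threshold of 4869 UMIs and 9586 of 10284 tested against the empty droplets), and the DKO file listed 14142 called cells. Cells above 20% mitochondrial UMIs (175 WT, 215 DKO) and likely doublets (319 and 201) were removed. The doublet threshold of the DKO library (0.227) was used in both, since that of the WT library marked none. Cells were clustered with scanpy 1.11.5 (2000 variable genes, 30 components, resolution 1) without 72 genes (members, lists, Ddx41, Cgas). The doublet threshold and the rule that scored cluster names were set after values were seen, as were the splits by cluster and depth. Named genes were the members, Ddx41, Cgas, listed pathway genes past 1.5-fold with at least 200 UMIs or with most erythroid UMIs, and 2 or 3 of the 3 most similar genes of each anti-apoptotic member. Members and lists were chosen with earlier results of these data known. Ratio code was tested on simulated data.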

Additional observations from a re-analysis of the deposited data

Results flagged for a closer look

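As summed, Bcl2l1 went in opposite directions past 1.5-fold in different cells. Its log2 ratio of DKO over WT was -0.73 under 15% hemoglobin and -0.71 in plasmacytoid-dendritic-like cells, against 0.91 at 75 to 90% hemoglobin and 0.79 at 90% or more. The first of these was under 1.5-fold in 4 alternatives (-0.07 to -0.57). Bbc3 did so too, with -0.75, -1.23 and -1.04 in the first 3 hemoglobin ranges and 0.63 in monocyte-like cells, of which -0.75 and 0.63 fell under 1.5-fold in some alternatives. With 1 library per genotype, whether these ratios differ from each other was not tested.

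RNA outside cells was seen in data that the comparisons do not use, the WT barcodes of at most 100 UMIs. There Mcl1 stood at 158 CPM, Bcl2l1 at 127, Bax at 64.6, Bcl2 at 57.4, Bid at 31.7, Bak1 at 27.0, Bcl2a1b at 26.8, Bad at 23.8, Bcl2l11 at 22.8 and Bbc3 at 13.01. The DKO file holds called cells only, so the same level is not known there. What part of the members' UMIs in cells came from such RNA was not tested beyond an upper limit, which was 17.2% for Bcl2l1 under 15% hemoglobin in WT and 1.60% at 40 to 75%, but 100% for Bcl2l1 in plasmacytoid-dendritic-like, conventional-dendritic-like, monocyte-like, mature B-like, macrophage-like and stromal-like cells, 96.1% in T-cell-like, 85.7% in stem-like, 81.3% in plasma-cell-like, 76.9% in NK-like, 76.2% in granulocyte-monocyte-progenitor-like, 74.7% in neutrophil-like and 68.9% in megakaryocyte-like cells, and which allows all of the Bcl2 UMIs of WT erythroid cells.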

How the results depend on the processing

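Outside the Bcl2l1 ratios by hemoglobin range, which are given below and of which 2 changed sign without 1 cluster, 232 of 234 comparisons of 27 member ratios kept their sign. Both exceptions were Bcl2 in small pre-B-like and immature B-like cells, -0.31 without doublet removal and -0.22 with each cell weighing the same, and the cause was not tested. Without doublet removal that class also held a cluster led by Ms4a1 and Agbl1, which the main clustering named mature B-like. Bax was below 0 in 10 of the 10 large non-erythroid classes under every alternative tried for it. Causes were not tested for the other values either. Counts of members past 1.5-fold are given below without the share of all genes under the same setting. They show how the counts move with the processing and are not a result about the members. Alternatives chosen after seeing the data were matched hemoglobin shares, leaving out the Xpo7 and March3 cluster, and cells of at least 1000 UMIs.

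With the order-of-magnitude UMI threshold for cells, the Bcl2l1 ratio was -0.23 under 15% and 0.19 at 40 to 75% hemoglobin, its level at 40 to 75% over under 15% 12.7 in WT and 16.9 in DKO, and the late over early neutrophil level of Mcl1 7.71 and 11.2. Members past 1.5-fold were 1 under 15% hemoglobin, 2 in macrophage-like, 1 in monocyte-like and 2 in plasmacytoid-dendritic-like cells.

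Scaled to UMIs outside hemoglobin, the Bcl2l1 ratio was 0.81 at 75 to 90% and 0.97 at 90% or more, the level fold 8.10 and 14.1, and members past 1.5-fold 1 in monocyte-like and 2 in plasmacytoid-dendritic-like cells. With each cell weighing the same, that fold was 0.884 and 1.36, and members past 1.5-fold were 4 under 15% and 1 at 15 to 40% hemoglobin, 1 in macrophage-like and in small pre-B-like cells, and 0 in granulocyte-monocyte-progenitor-like, mature B-like and neutrophil-like cells.

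With matched hemoglobin shares, the Bcl2l1 ratio was 0.18 at 40 to 75%, 0.75 at 75 to 90% and 1.09 at 90% or more, with 1 member past 1.5-fold at 15 to 40%. Without the Xpo7 and March3 cluster it was -0.067, 0.089 and -0.021 in the first 3 ranges, the fold 9.38 and 9.67, with 0 members past 1.5-fold under 15%. With cells of at least 1000 UMIs the ratio under 15% was -0.43, the fold 4.95 and 7.06, with 1 member there and 2 in macrophage-like cells.

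Members past 1.5-fold without doublet removal were 2 in granulocyte-monocyte-progenitor-like, 2 in plasmacytoid-dendritic-like, 1 in monocyte-like and 0 in pro-B-like cells, and at a clustering resolution of 2.0 they were 2 in granulocyte-monocyte-progenitor-like, 1 in monocyte-like and 0 in pro-B-like cells. With a mitochondrial limit of 10% there were 3 in plasmacytoid-dendritic-like cells. With a filter of 20 UMIs there were 2 at 40 to 75% and 6 at 75 to 90% hemoglobin, 3 in macrophage-like and 2 in stem-like cells. With no filter there were 3, 6 and 8 in the last 3 ranges, 3 in macrophage-like, 2 in stem-like, 3 in pro-B-like and 4 in small pre-B-like cells. Sums of a few UMIs are counted there too, where counting error is large. With the Bcl2a1 copies summed their macrophage-like share was 37.8% in WT. Thinned to 500 UMIs, 13.7% (WT) and 15.02% (DKO) of cells of 40 to 75% hemoglobin had a Bcl2l1 UMI, and 23.2% and 28.4% of neutrophil-like cells an Mcl1 UMI. Adding 0.1 count in place of 1 moved no value beyond its interval.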
